A study of Mus musculus with 6 samples.

Results

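A set of 10 genes used as markers of macrophages was followed in C0321 mammary tumors, namely Csf1, Csf1r, Adgre1, Cd68, Mrc1, Cd163, Msr1, Mertk, Trem2 and Apoe. They were chosen by gene symbol, with earlier results of these data known, and all 10 of 10 were among the 13730 genes of the deposited table, of which 10902 had enough counts to be tested. C0321 is a mouse triple-negative breast cancer line, a clone of a Lunatic Fringe knockout tumor. Cells mixed with Matrigel and PBS were placed in the mammary fat pad of female FVB mice aged 6 to 10 weeks, and treatment began once a mass could be felt. Mice of the SS group were dosed orally with 60 mg/kg daily over 14 days. SS is sulindac sulfide, the active metabolite of an anti-inflammatory drug, although the treatment label reads Sulindac Sulfate. The control group is described as given saline in one source and vehicle in another. There were 3 tumors in each group, so every comparison sets 3 SS tumors against 3 control tumors. The hosts were immunocompetent and of the line's own strain, so macrophages of the host could enter the tumors.

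Macrophages depend on signals through the receptor tyrosine kinase encoded by Csf1r, whose ligands are the products of Csf1 and Il34. In tumors they take up debris, dying cells and lipid through scavenger and phagocytic receptors, and the set of receptors they carry is used to describe their state. The 10 genes cover that range, from the ligand and its receptor (Csf1, Csf1r), through general markers (Adgre1, which encodes F4/80, and Cd68), to uptake receptors (Mrc1, Cd163, Msr1, Mertk) and lipid handling (Trem2, Apoe).

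The libraries held between 8468914 (SS tumor 2) and 24441522 (control tumor 3) counts, and the 3 control libraries were not evenly matched to the SS libraries in depth. A count of 3 in a library corresponded to 0.123 to 0.354 CPM (counts scaled by library size, the usual unit of level), which covers counting error only. The actin gene Actb alone took 7.08% to 7.91% of the counts. Some short genes that leukocytes use heavily were low in this table, with B2m, the light chain of class I antigen-presenting molecules, at 1.66 to 3.84 CPM and Tyrobp, the adaptor protein of Trem2, at 0.338 to 1.81 CPM. Low levels were not general to short genes. Tested genes with transcripts under 1000 bases had a median of 10.9 CPM, against 8.88, 13.2 and 24.1 CPM in classes of rising length. A smaller share of them had enough counts to be tested (66.5% against 74.6% to 86.6%). Control tumor 1 stood apart in markers of other cells, with the highest sums of the 6 tumors for adipocyte (123 against 15.6 to 78.4 CPM), erythroid (3923 against 852 to 2084 CPM) and T and NK cell markers (47.8 against 4.31 to 20.7 CPM), so members and gene lists are also given without it where that changes their counts. A low CPM in the results that follow is the value of the table and was not read as absence of the RNA. RNA came from whole tumors, in which fewer cells of a type and less RNA per cell cannot be told apart.

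No member passed the test between SS and control tumors, and in each of the 10 genes the values of the groups overlapped. Over all genes tested, 0 of 10902 (0%) passed an adjusted p of 0.05 in edgeR's quasi-likelihood test, and 0 of the 9 members tested passed. At an unadjusted p under 0.05 the count was 693 genes (6.36%) over the table and 0 of the 9 members. In 1408 genes (12.9%) the 3 SS tumors lay all above or all below the 3 control tumors, and this held for 0 of the 9 members. DESeq2 called 36 of the 6672 genes it gave an adjusted p (0.540%) and 0 of the 6 members it gave one, leaving Cd68, Cd163 and Msr1 without an adjusted p. The fitted change was above 0 in 7 members and below 0 in 2 (Msr1 and Apoe), with a median log2 fold change of 0.11 against -0.0014 over all genes tested, of which 49.8% were above 0. Without control tumor 1 the split was 4 above and 5 below with a median of -0.02, and without SS tumor 1 it was 5 above and 4 below with a median of 0.06, so the tally rested on single tumors. These counts leave out Trem2, which had too few counts to be tested. With 3 tumors against 3 the exact permutation test of a single gene cannot give a p below 0.1.

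**Figure D1:**
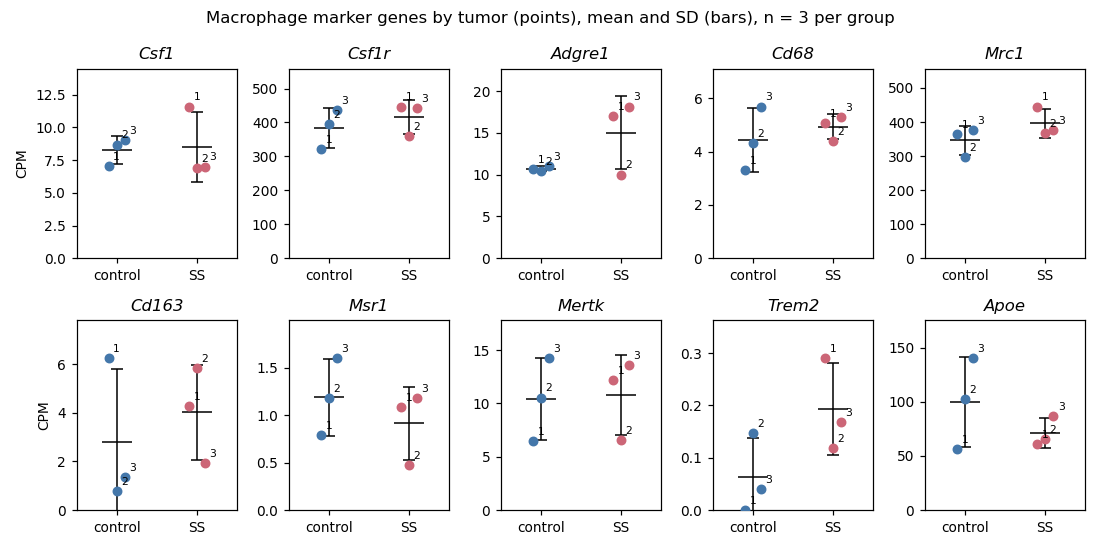
Level of each of the 10 genes in CPM (vertical axis, from 0, with its own scale in each panel) in the 3 control tumors (blue) and the 3 SS tumors (red). Points are tumors, numbered by replicate, and bars are the mean and SD; in every panel the groups overlap, and Adgre1 shows 2 SS tumors (17.0 and 18.1 CPM) above the controls and 1 (10.0 CPM) below them.

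The markers were present at very uneven levels. Compared per kilobase of transcript, so that genes of different length can be set side by side, the mean level over the 6 tumors was 103 CPM per kilobase for Csf1r, 69.1 for Mrc1 and 62.5 for Apoe. A gap followed, with Adgre1 at 4.09, Cd68 at 3.81, Csf1 at 3.46 and Mertk at 2.46 CPM per kilobase. Cd163 (0.771), Msr1 (0.311) and Trem2 (0.117) were lowest. Neighbors in this order overlapped across tumors within the top 3 (Csf1r from 83.0 to 116, Mrc1 from 55.5 to 82.9, Apoe from 41.3 to 102 CPM per kilobase), except that the lowest Csf1r value lay just above the highest Mrc1 value. The ranges of Adgre1, Cd68, Csf1 and Mertk overlapped as well. Csf1r, Mrc1 and Apoe thus held most of the counts per length of the 10 markers, and the general markers Adgre1 and Cd68 were low. Rps2, a ribosomal protein gene that every cell uses, was at only 15.5 to 21.5 CPM, and the part of the counting step in the order of genes was not tested. Apoe is also made by other cells, and which cells gave its counts was not tested.

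The ligand gene Csf1 (mm10 chr3:107741048-107760470, minus strand) encodes the growth factor that keeps macrophages alive. Control tumors had 7.03, 8.69 and 9.06 CPM, and SS tumors had 11.6, 6.91 and 7.01 CPM. SS tumor 1 was above all controls, whereas the other SS tumors were just below the lowest control. The fitted log2 fold change was 0.04 (SE 0.27, 95% interval -0.59 to 0.68), with an edgeR adjusted p of 0.98, and its sign turned without control tumor 1 (-0.06) and without SS tumor 1 (-0.25).

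Csf1r, the receptor, was the most abundant member per length. Its levels were 321, 394 and 436 CPM in control tumors and 447, 359 and 441 CPM in SS tumors. The groups overlapped, and control tumor 1 was the lowest of the 6. Its log2 fold change was 0.11 (SE 0.14, 95% interval -0.22 to 0.45, edgeR adjusted p 0.922), and it was 0.0011 without control tumor 1. The highest tumor was 1.39 times the lowest, where the median gene with a mean over 50 CPM had a span of 1.34.

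Adgre1 (chr17:57358686-57483530, plus strand) encodes F4/80, the surface protein by which mouse macrophages are most often sorted. Controls were close together at 10.7, 10.4 and 11.0 CPM, and SS tumors were at 17.0, 10.0 and 18.1 CPM. SS tumors 1 and 3 were thus above every control and SS tumor 2 below every control. Adgre1 had the smallest unadjusted p of the members, with a log2 fold change of 0.50 (SE 0.24, 95% interval -0.07 to 1.06) and an edgeR adjusted p of 0.792. Without SS tumor 2 the change was 0.71 and the groups did not overlap, with an edgeR adjusted p of 0.801, but 23.0% of all genes also had groups apart in that fit. SS tumor 2 was the only SS tumor not above every control. Leaving it out therefore had to part the groups of this gene, and no conclusion is drawn from that.

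Cd68 (chr11:69664213-69666171, minus strand), which encodes a glycoprotein of lysosomes and endosomes, was measured at 3.32, 4.32 and 5.70 CPM in control tumors. The SS tumors were at 5.07, 4.41 and 5.32 CPM, all within the range of the controls. The log2 fold change was 0.15 (SE 0.31, 95% interval -0.57 to 0.86, edgeR adjusted p 0.945), and it was -0.02 without control tumor 1, which had the lowest value.

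**Figure D2:**
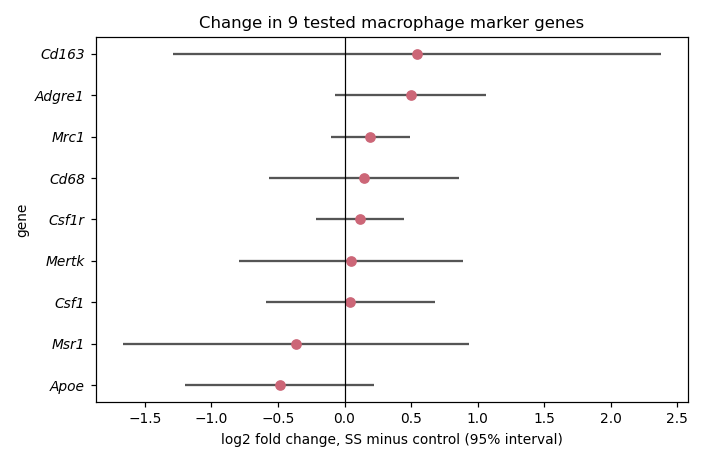
Log2 fold change of SS minus control (horizontal axis) for the 9 members tested, as points with 95% intervals from edgeR. Every interval includes 0, that of Cd163 is the widest (-1.29 to 2.38) and that of Mrc1 the narrowest (-0.10 to 0.49).

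Among the uptake receptors, Mrc1 and Cd163 are both used as markers of alternatively activated macrophages, and they differed in level and in spread. Mrc1 (chr2:14229414-14332024, plus strand), the mannose receptor CD206, was at 365, 298 and 377 CPM in control tumors and 446, 366 and 377 CPM in SS tumors. Only SS tumor 1 stood clearly above the controls. The fitted log2 fold change was 0.19 (SE 0.13, 95% interval -0.10 to 0.49), with an edgeR adjusted p of 0.854.

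Cd163 (chr6:124304651-124330528, plus strand), which takes up complexes of hemoglobin and haptoglobin, was at 6.24, 0.786 and 1.35 CPM in control tumors. The SS tumors were at 4.28, 5.84 and 1.94 CPM. Control tumor 1 was the highest of all 6 and the other controls the lowest, so the spread lay within the groups. The highest tumor was 7.94 times the lowest, a larger span than in 94.97% of genes above 0 in every tumor. Those genes are of every level, and the median gene with a mean of 1 to 20 CPM, as Cd163 has, had a span of 2.19. Its log2 fold change was 0.54 (SE 0.79, 95% interval -1.29 to 2.38, edgeR adjusted p 0.929). Without control tumor 1 it was 1.89 with groups that did not overlap (edgeR adjusted p 0.548), in a fit where 25.4% of all genes had groups apart. The groups had to part there, since control tumor 1 was the only control above an SS tumor.

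The tumors in which Cd163 was high were also those with more RNA of fat cells and of some keratin genes of epithelium. The 8 adipocyte markers in the table summed to 123, 21.8 and 15.6 CPM in control tumors and 54.1, 78.4 and 20.1 CPM in SS tumors, so control tumor 1, SS tumor 2 and SS tumor 1 held the 3 highest values, in the same order as for Cd163. Plin1, which coats the lipid droplets of fat cells, was at 37.7, 0.10 and 0 CPM in control tumors and at 8.05, 14.6 and 0 CPM in SS tumors. Lipe, the hormone-sensitive lipase, was at 35.1, 7.22 and 5.41 CPM in control and 18.6, 28.0 and 10.7 CPM in SS tumors, and Pnpla2, another lipase of stored fat, was at 8.69 to 40.5 CPM. Adipoq, the fat cell hormone adiponectin, reached at most 0.595 CPM. The 9 mammary epithelial markers had their 3 highest sums in the same tumors in the same order, at 938 CPM in control tumor 1, 927 CPM in SS tumor 2 and 711 CPM in SS tumor 1, against 509 to 677 CPM in the others. The order of the sums rested on Krt19, since without it control tumor 2 (666 CPM) was second to control tumor 1 (710 CPM) and SS tumors 1 and 2 were at 589 and 621 CPM. Krt19 was at 228, 10.8 and 4.51 CPM in control and 121, 306 and 11.6 CPM in SS tumors. Krt5 (73.0, 1.13 and 1.43 CPM in control and 33.9, 26.7 and 0 CPM in SS tumors) and Krt14 (45.8, 14.0 and 6.44 CPM in control and 20.9, 33.8 and 7.60 CPM in SS tumors) were highest in the same 3 tumors, whereas Krt8, the largest part of the sum, was not. Of the 4 adipocyte markers tested, 0 were at an unadjusted p under 0.05, but without control tumor 1, where Cd163 also had groups apart, 3 were (Fabp4, Lipe and Plin1), all 4 were above 0 and their median log2 fold change was 2.75 in place of 0.05. The part of fat or epithelial cells in the Cd163 values was not tested. Mertk had its 2 lowest values in the tumors with the most adipocyte RNA, control tumor 1 and SS tumor 2.

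**Figure D3:**
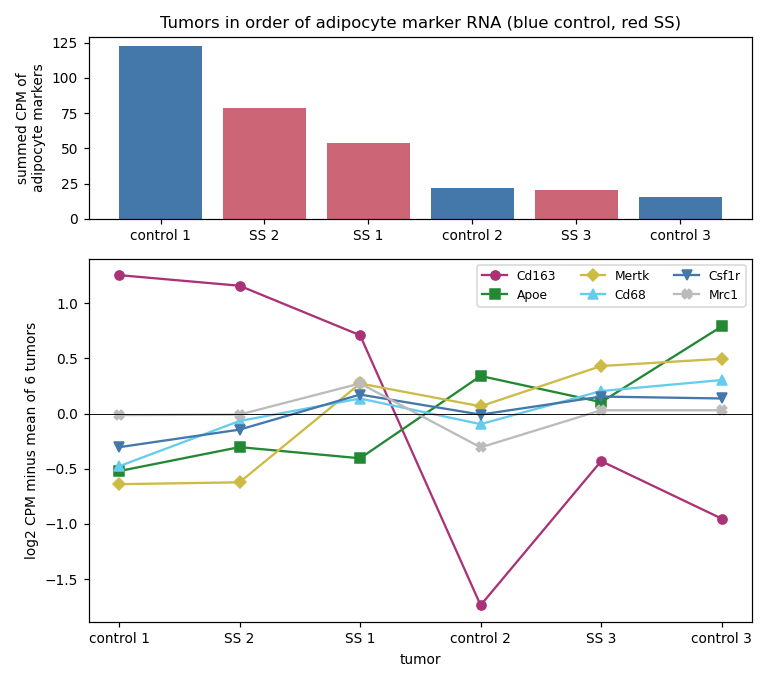
Upper panel, summed CPM of 8 adipocyte markers in each tumor, with the tumors in falling order (blue control, red SS). Lower panel, log2 CPM of 6 members in the same tumors minus the mean of the 6 tumors; Cd163 is high in control tumor 1, SS tumor 2 and SS tumor 1 and low in the other tumors, while Csf1r and Mrc1 change little.

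Msr1 (chr8:39581700-39642679, minus strand) encodes the class A scavenger receptor for modified lipoproteins. It was at 0.790, 1.18 and 1.60 CPM in control tumors and 1.09, 0.476 and 1.18 CPM in SS tumors, which rest on 4 to 39 counts per tumor. The groups overlapped, with SS tumor 2 lowest. The log2 fold change was -0.37 (SE 0.56, 95% interval -1.67 to 0.93, edgeR adjusted p 0.931), and without control tumor 1 it was -0.58 (edgeR adjusted p 0.869). In that fit the groups were apart, as for 25.4% of all genes, but by rescaling of a near-tie between SS tumor 3 (14 counts) and control tumor 2 (24 counts), which overlap at the levels given here.

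Mertk (chr2:128698915-128803008, plus strand) encodes the receptor kinase with which macrophages bind dying cells. Its levels were 6.47, 10.6 and 14.2 CPM in control tumors and 12.2, 6.55 and 13.6 CPM in SS tumors, so the 2 groups covered nearly the same range. The fitted log2 fold change was 0.05 (SE 0.36, 95% interval -0.79 to 0.89, edgeR adjusted p 0.983), and its sign turned without control tumor 1 (-0.20), without SS tumor 1 (-0.05) and without SS tumor 3 (-0.15).

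Trem2 (chr17:48346401-48352277, plus strand), a receptor for lipids that marks lipid-laden macrophages, was close to undetected. The control tumors had 0, 3 and 1 counts and the SS tumors 4, 1 and 2 counts, or at most 0.290 CPM. A count of 3 is the limit that a count of 0 allows, so no fold change is given and a difference was not detectable at this depth.

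Apoe (chr7:19696244-19699189, minus strand), the lipid carrier that macrophages secrete, was at 56.5, 103 and 140 CPM in control tumors. The SS tumors were at 61.2, 65.6 and 87.0 CPM. The 2 highest values were both in controls, but control tumor 1 was the lowest of all 6, so the groups overlapped. Its log2 fold change was -0.49 (SE 0.31, 95% interval -1.20 to 0.22), with an edgeR adjusted p of 0.843. Without control tumor 1 it was -0.77 and the groups did not overlap, with an edgeR adjusted p of 0.538. The groups had to part there, since control tumor 1 was the only control below an SS tumor. In that fit 25.4% of all genes had groups apart, and 7.81% were at an unadjusted p under 0.05, as Apoe was. As a share of Csf1r in the same tumor, a ratio formed after the values were seen, Apoe was at 17.6%, 26.0% and 32.1% in control tumors and 13.7%, 18.3% and 19.7% in SS tumors (log2 difference -0.52, exact two-sided permutation p = 0.3).

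The table lists Apoe transcripts from 3 start positions, which give the gene a second readout. The promoter sequence before the start at 19699188 (chr7:19699189-19699438) and that before the start at 19698621 (chr7:19698622-19698871) are shown because they precede the starts that took most counts. The promoters of Mrc1 (chr2:14229164-14229391, trimmed of bases that the annotation places in a transcript) and Cd68 (chr11:69666171-69666420) are shown beside them as those of an abundant and a low marker. Sequences are from RefSeq on GRCm38.p6, 5′ to 3′ on the strand of the gene. Capitals mark matches, on either strand, to the core of the myeloid factor PU.1 (GAGGAA), to the AP-1 site (TGACTCA) or to the TATA box (TATAAA).
Apoe, start 19699188: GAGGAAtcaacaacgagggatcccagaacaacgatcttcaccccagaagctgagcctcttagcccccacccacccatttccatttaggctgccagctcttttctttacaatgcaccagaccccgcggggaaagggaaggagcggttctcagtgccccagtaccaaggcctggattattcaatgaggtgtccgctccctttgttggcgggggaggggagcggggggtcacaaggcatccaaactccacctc
Apoe, start 19698621: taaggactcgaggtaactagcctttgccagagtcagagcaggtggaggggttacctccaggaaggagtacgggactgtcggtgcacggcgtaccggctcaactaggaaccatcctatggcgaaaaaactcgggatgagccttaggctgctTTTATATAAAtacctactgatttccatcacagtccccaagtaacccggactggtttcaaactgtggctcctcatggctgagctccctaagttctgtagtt
Mrc1: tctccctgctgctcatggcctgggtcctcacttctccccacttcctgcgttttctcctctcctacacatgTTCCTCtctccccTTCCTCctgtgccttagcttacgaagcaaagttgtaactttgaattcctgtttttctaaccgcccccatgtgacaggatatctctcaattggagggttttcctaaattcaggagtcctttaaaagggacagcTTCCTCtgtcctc
Cd68: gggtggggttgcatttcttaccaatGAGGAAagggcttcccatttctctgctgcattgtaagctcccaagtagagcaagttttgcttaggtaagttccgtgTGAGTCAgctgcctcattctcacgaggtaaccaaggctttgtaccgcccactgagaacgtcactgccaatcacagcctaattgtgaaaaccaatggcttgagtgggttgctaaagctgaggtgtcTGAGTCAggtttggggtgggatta

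In these windows the upstream Apoe promoter held 1 PU.1 core at its far end, and the second held 2 overlapping TATA matches and no PU.1 core. The Mrc1 promoter held 3 PU.1 cores, and the Cd68 promoter held 1 PU.1 core and 2 AP-1 sites. Of 32851 RefSeq promoter windows of 250 bases, 23.3% held the PU.1 core, 4.46% the AP-1 site and 12.4% the TATA box. A RUNX core (TGTGGT), found in 14.0% of windows, was in none of the 4 shown. The matches are descriptions of the letters only. Promoter windows were found for 7 of the 10 members.

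The start at 19699188 took most Apoe counts in every tumor, at 81.8%, 73.5% and 87.5% in control tumors and 61.3%, 85.5% and 62.1% in SS tumors. SS tumors 1 and 3 were below every control and SS tumor 2 was within their range. The mean share was 81.0% ± 7.03 (SD, n = 3) in control and 69.6% ± 13.8 (SD, n = 3) in SS tumors, a difference of -11.3 percentage points (exact two-sided permutation p = 0.3). It was -19.3 points without SS tumor 2 and -7.16 points without SS tumor 1. The start at 19698621 took 13.5%, 14.9% and 8.28% in control and 33.7%, 9.82% and 19.0% in SS tumors (exact two-sided permutation p = 0.3), and the most downstream start took the remainder. These shares depend on how the counting tool divided reads that overlapping transcripts share. For Cd163 that division was the same in every tumor, at 28.6% and 71.4% for its 2 transcripts, so it carries no measurement of the isoforms.

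**Figure D4:**
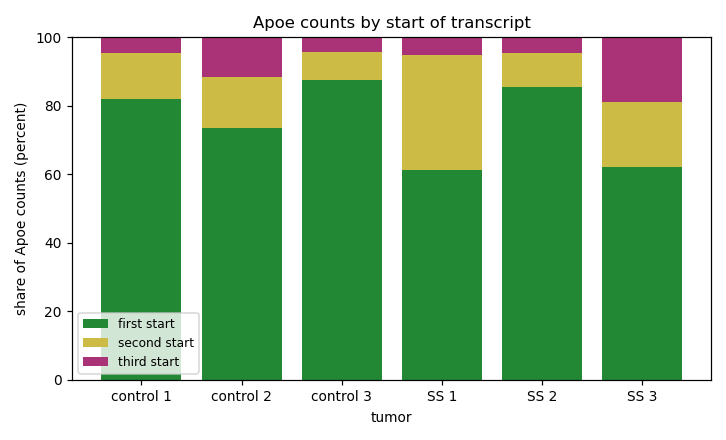
Share of the Apoe counts (vertical axis, percent, stacked to 100) of each tumor that fell on transcripts from the start at 19699188 (green), 19698621 (yellow) and 19698398 (purple). The start in green ranges from 61.3% to 87.5%, and SS tumors 1 and 3 have the lowest shares.

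Transcript shares were also tested for Csf1 and Adgre1. In Csf1 the share of transcript NM_001113529 was 34.2%, 37.6% and 16.5% in control tumors and 50.1%, 38.0% and 36.5% in SS tumors. Control tumor 2 was above SS tumor 3, so the groups overlapped, and the difference did not pass the exact two-sided permutation test (p = 0.2). For Adgre1 the main transcript took 45.4% to 64.3% (exact two-sided permutation p = 0.4). The split was identical in control tumor 1, SS tumor 1 and SS tumor 2 (55.2% for the main transcript), as the split of Cd163 was in every tumor. The shares of those tumors were not read as measurements, so no conclusion on Adgre1 isoforms is drawn from the test. Msr1 had under 10 counts in SS tumor 2 and its shares were not tested.

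The members' extremes were spread over the tumors of both groups, and whether they moved together was not tested. The median deviation of the members from their mean (log2 scale) was -0.29 in control tumor 1 and -0.25 in SS tumor 2, -0.0098 in control tumor 2, and 0.14, 0.27 and 0.15 in control tumor 3, SS tumor 1 and SS tumor 3. Control tumor 1 had the lowest value of Csf1r, Cd68, Mertk and Apoe and the highest of Cd163. Control tumor 3 had the highest value of Cd68, Msr1, Mertk and Apoe. SS tumor 1 was highest for Csf1, Csf1r and Mrc1, and SS tumor 2 was lowest for Csf1, Adgre1 and Msr1. Each group thus held both a tumor with several of the lowest values and a tumor with several of the highest. The genes most like Csf1r over the 6 tumors, by Pearson correlation of log2 CPM among 6284 genes with a mean of at least 10 CPM, were Chd4 (r = 0.985), Sdc4 (0.985), Marf1 (0.984), Nlgn2 (0.983) and Stard3 (0.980). Those most like Adgre1 were Tbc1d13 (0.991), Psma7 (0.984), Rbm5 (0.981), Ssu72 (0.978) and Gngt2 (0.973). They were picked for their likeness out of many genes, so no test is given, and for Adgre1 the likeness rested on SS tumors 1 and 3, without which r fell to -0.19 for Psma7 and 0.82 for Tbc1d13.

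Genes that work with the members were read from the same fit, and none of them passed the adjusted threshold (smallest edgeR adjusted p 0.679 over all lists). In the family of colony-stimulating factors and their receptors, 4 genes other than Csf1 and Csf1r were tested, all with a fitted change above 0 (median log2 fold change 0.54) and 0 at an unadjusted p under 0.05, although 1 of the 4 was below 0 without control tumor 3. Il34, the second ligand of Csf1r, was at 0.947, 1.28 and 1.27 CPM in control tumors and 1.38, 1.31 and 2.19 CPM in SS tumors. The 2 groups did not overlap, as in 12.9% of all genes, and its log2 fold change was 0.48. Csf2rb2, the other gene of the family with groups apart, shares much of its sequence with Csf2rb, so its counts are uncertain.

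**Figure D5:**
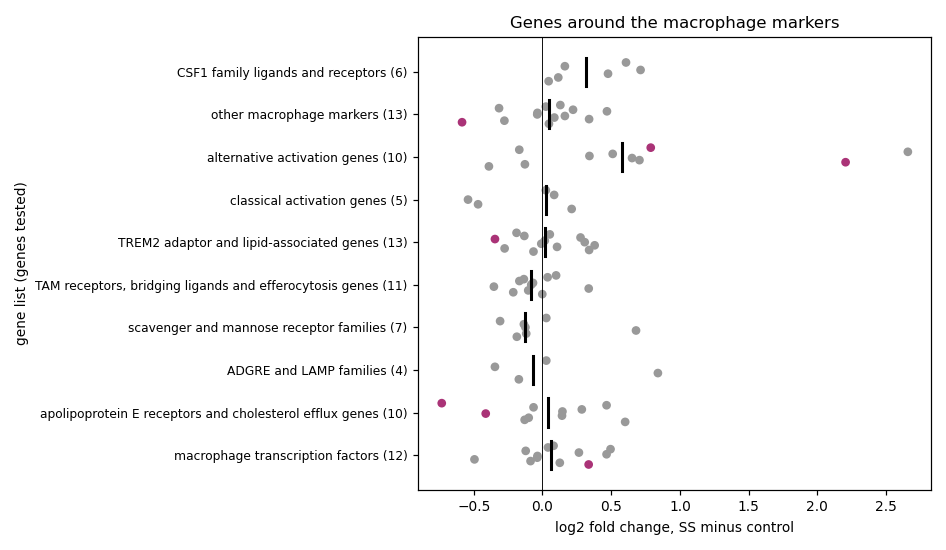
Log2 fold change of SS minus control (horizontal axis) for the tested genes of 10 lists related to the members (vertical axis, number tested in parentheses). Each point is a gene, purple where the unadjusted edgeR p was under 0.05, and the black bar is the median; 7 points are purple and none passed the adjusted threshold.

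The transcription factor Spi1 (PU.1), which directs macrophage development and regulates Csf1r, was the 1 of 12 macrophage transcription factors tested at an unadjusted p under 0.05. It stood at 70.4, 68.3 and 63.5 CPM in control tumors and 91.8, 77.3 and 86.1 CPM in SS tumors. All SS tumors were above all controls, with a log2 fold change of 0.34 (SE 0.11, edgeR adjusted p 0.771). The count of the list at that p was 4 of 12 without control tumor 1 (Irf8, Nr1h3, Pparg and Spi1), 0 without SS tumor 1 and 1, Mitf in place of Spi1, without control tumor 3.

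Of 13 other macrophage markers tested, 8 had a fitted change above 0, 5 below, and 1, Cd14, was at an unadjusted p under 0.05. Cd14, the co-receptor for bacterial lipopolysaccharide, was at 15.2, 15.1 and 21.0 CPM in control tumors and 10.1, 11.0 and 13.3 CPM in SS tumors, without overlap (log2 fold change -0.59, edgeR adjusted p 0.771). The list gave 2 genes at that p without control tumor 1 (Cd14 and Lyz2), 1 without SS tumor 2 (Aif1) and 0 without SS tumor 1 or control tumor 3.

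Among 10 tested genes of alternative activation, the state that Mrc1 also marks, 7 were above 0 and 3 below, with a median log2 fold change of 0.58. Retnla, a secreted protein induced by interleukin-4, was at 1.11, 0.147 and 0.451 CPM in control tumors and 4.57, 2.38 and 0.675 CPM in SS tumors, so the groups overlapped (log2 fold change 2.205, edgeR adjusted p 0.771). Pdcd1lg2, which encodes the checkpoint ligand PD-L2, was at 12.001, 8.25 and 14.7 CPM in control and 27.4, 19.2 and 13.7 CPM in SS tumors (0.79, edgeR adjusted p 0.771). SS tumor 3 was within the control range for both, and the count of 2 became 0 without SS tumor 1, SS tumor 2 or control tumor 2, 1 without control tumor 3 and 3 without SS tumor 3. The count stayed at 2 without control tumor 1, with Ccl17 in place of Pdcd1lg2. Of the 5 classical activation genes tested, 3 were above 0, 2 below and 0 at an unadjusted p under 0.05, with Socs3, a brake on cytokine signaling, at a log2 fold change of 0.08 and Irf5, a transcription factor of inflammatory macrophages, at 0.02. Of the genes of this list with too few counts to be tested, Cxcl9, a chemokine induced by interferon-gamma, had 1, 1 and 0 counts in control and 11, 6 and 15 in SS tumors. Cd86, a costimulatory ligand, had 2, 2 and 3 counts in control and 11, 5 and 2 in SS tumors. In CPM the groups of both genes did not overlap, as in 11.9% of all genes when no filter on low counts was used. For Cd86 this rested on a near-tie between SS tumor 3 (0.169 CPM) and control tumor 1 (0.158 CPM). Both tumors had 2 counts, below the limit of 3, so only library scaling parted them, and no conclusion is drawn for Cd86.

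In the genes around Trem2 and lipid-laden macrophages, 7 of 13 tested were above 0 and 6 below. Cd9, a tetraspanin of the cell surface, was at 162, 167 and 180 CPM in control tumors and 111, 139 and 151 CPM in SS tumors, without overlap (log2 fold change -0.35, edgeR adjusted p 0.771). That list gave 3 genes at an unadjusted p under 0.05 without control tumor 1, 2 without SS tumor 2, neither of them Cd9, and 0 without SS tumor 1, control tumor 2 or control tumor 3. Around Apoe, 5 of 10 receptors and cholesterol efflux genes were above 0 and 5 below. Of these, 2 were at an unadjusted p under 0.05, Clu, which encodes the extracellular chaperone apolipoprotein J (-0.73), and Sorl1, an intracellular sorting receptor (-0.41), each with an edgeR adjusted p of 0.771 and with overlapping groups, and leaving out single tumors gave 0 (SS tumor 3 or control tumor 2) to 3 (control tumor 3).

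The relatives of Mertk, its bridging ligands and other genes of dying-cell uptake gave 3 above 0 and 8 below of 11 tested, with 0 at an unadjusted p under 0.05. Axl, its sister kinase, had a log2 fold change of -0.0015 (SE 0.13), and the integrin subunit gene Itgb5 one of -0.07 (SE 0.22). The scavenger and mannose receptor families gave 2 above 0 and 5 below of 7 tested, and again 0 at an unadjusted p under 0.05. Stab1, a scavenger receptor of macrophages and endothelium, had a log2 fold change of -0.14 and Mrc2, a collagen uptake receptor of the mannose receptor family, one of -0.31. Among relatives of Adgre1 and Cd68, 4 were tested with 0 at an unadjusted p under 0.05, and the lysosomal membrane gene Lamp1 had a log2 fold change of -0.35 and Lamp2 one of 0.03.

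Markers of other cells that could share these genes were read beside them. The 6 leukocyte markers summed to 916 to 1070 CPM in control and 1019 to 1213 CPM in SS tumors, which overlapped, and 0 of 5 tested were at an unadjusted p under 0.05. Lcp1, an actin-bundling protein of leukocytes, had a log2 fold change of 0.19 and Laptm5, a leukocyte lysosomal protein, one of 0.03. Of 5 dendritic cell markers tested, 3 were above 0 and 2 below, and 1 was at an unadjusted p under 0.05. That gene, Itgax (CD11c), an integrin that some macrophages also carry, was at 66.8, 49.4 and 50.9 CPM in control tumors and 173, 131 and 89.5 CPM in SS tumors. The groups did not overlap (log2 fold change 1.24, SE 0.24, edgeR adjusted p 0.679). The other 8 markers of the list in the table summed to 27.6 to 70.4 CPM in control and 44.4 to 61.3 CPM in SS tumors, which overlapped. Without control tumor 1 all 5 tested were above 0 with a median log2 fold change of 1.39 in place of 0.11, and 3 (Batf3, Ccr7 and Itgax) were at an unadjusted p under 0.05. Monocyte markers gave 0 of 4 above 0, led by Fn1 (fibronectin, log2 fold change -0.20) and Vcan (versican, -0.14), which fibroblasts also express. With a tumor left out, 1 or 2 of the 4 were above 0, and the median was 0.02 without control tumor 2 in place of -0.14.

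Other cell types of the tumor and its site were covered by the remaining lists. Of 5 erythroid genes tested, all had a fitted change below 0 and 4 were at an unadjusted p under 0.05 (Hba-a1, Hba-a2, Hbb-bt and Alas2, median log2 fold change -1.05). Their summed level was 1890 to 3923 CPM in control and 852 to 1932 CPM in SS tumors, and the 2 alpha-globin genes are near-identical copies. All 5 stayed below 0 in each fit with a tumor left out, but the count at that p was 1 (Hbb-bt) without control tumor 1 (median -0.67) or SS tumor 1 (median -0.85), and 2 without SS tumor 3. Of 5 endothelial markers tested, 4 were above 0 and 1 below (median log2 fold change 0.44), but without SS tumor 2 there were 2 above and 3 below (median -0.16). Only Vwf, with a log2 fold change of 1.20 and groups apart (edgeR adjusted p 0.771), had an unadjusted p under 0.05, which it lost without SS tumor 2, control tumor 2 or control tumor 3. Of 9 mammary epithelial markers, 4 were above 0 and 5 below, and only Krt18, with one of -0.50 and groups apart (edgeR adjusted p 0.760), did so. Without control tumor 1 there were 5 (Cdh1, Epcam, Krt5, Krt18 and Krt19), with 6 above 0, 3 below and a median of 1.02 in place of -0.08. Fibroblast markers gave 1 of 8 above 0 (Col1a1 at -0.10, Col1a2 at -0.31), with 0 at an unadjusted p under 0.05. Neutrophil (3 tested, Ltf at -0.18 and Mmp8 at -0.68), T and NK cell (1 tested, Cd3e at -0.82), B cell (1 tested, Jchain at -0.40) and mast cell markers (1 tested, Kit at 0.06) had few genes with enough counts and 0 at an unadjusted p under 0.05. Without control tumor 1, in a fit where 7.81% of all genes reached that p, so did 2 fibroblast markers, 2 scavenger or mannose receptor genes and 1 gene each of the leukocyte, monocyte, neutrophil, B cell, and ADGRE and LAMP lists, and the changes of Cd3e (0.32) and Jchain (4.37) turned above 0. Without SS tumor 3, in a fit where 5.9% of all genes reached that p, the fibroblast list gave Fap and the ADGRE and LAMP list Adgrg1. The scavenger receptor and dying-cell uptake lists gave the same gene, Stab1, which is in both. The part of these cells in the members' values was not tested.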

How the data were processed

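RNA of 6 whole tumors was sequenced from stranded polyadenylated libraries. Estimated counts for 20648 RefSeq transcripts (mm10) were deposited by the authors without normalization, and entries with low counts had been removed (lowest total per transcript 10). The submitters' processing notes name CASAVA 1.8.1, Bowtie2 2.2.5 and STAR 2.5.3a without roles, and the counting tool is not given in the sources used here. Counts were summed by gene symbol (21 symbols that a spreadsheet had turned into dates were restored) and rounded. edgeR 4.0.16 (R 4.3.3) was used with TMM scaling and filterByExpr, and quasi-likelihood p-values were adjusted by Benjamini-Hochberg over all 10902 genes. SE was taken from the fold change and its F statistic (log2 fold change over root F), and intervals use the degrees of freedom of the fit. Levels are TMM-scaled CPM. Alternatives used DESeq2 1.42.0 and limma 3.58.1. Transcript shares were compared by exact permutation. The code was tested on simulated data. Members and lists were chosen with earlier results of these data known. Named from each list were genes at an unadjusted p under 0.05 or, where there were none, the 2 with the highest CPM, and the 5 genes most correlated with Csf1r and with Adgre1. Il34, Csf2rb2, Plin1, Adipoq, Krt5, Krt8, Krt14, Krt19, Cxcl9, Cd86 and the genes named for fits with a tumor left out were named after their values were seen. The sources used here do not say that the 3 tumors of a group came from separate mice, so p-values measure only the spread between these samples, which may be technical. Coordinates are those of the deposited table, whose end is 1 base past the RefSeq end.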

Additional observations from a re-analysis of the deposited data

How the results depend on the processing

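No member given an adjusted p passed the threshold under any of 15 alternatives (scaling by RLE size factors, upper quartile or quantiles, DESeq2, limma-voom, other filters, thinning, the replicate block and each tumor left out), although DESeq2, which gave 6 of 9 members an adjusted p, called 36 genes of the table where edgeR called 0. The log2 fold change kept its sign in all of these for Adgre1 (0.34 to 0.71), Mrc1 (0.10 to 0.26), Csf1r (0.0011 to 0.22), Cd163 (0.09 to 1.89), Apoe (-0.77 to -0.16) and Msr1 (-0.58 to -0.08, with 14 alternatives giving a value). It turned on leaving out single tumors for Csf1 (-0.25 to 0.17), Cd68 (-0.021 to 0.37) and Mertk (-0.20 to 0.34), and for Mertk also on thinning to the smallest library (-0.10). Leaving out 1 tumor gave 0 to 2 members at an unadjusted p under 0.05 (4.58% to 7.81% of all genes) and 0 to 3 with groups apart (21.1% to 25.4%), the most without control tumor 1, and thinning gave 1 with groups apart, Mrc1 (12.7%). The median of the members ranged from -0.02 (without control tumor 1) to 0.22 (without control tumor 3) over the left-out tumors. Deviations of same-numbered tumors correlated at 0.12, 0.02 and 0.08, and no source ties tumors of the same number to each other, so the numbers were not taken to pair them. With the replicate block, 0 genes were called, 643 had an unadjusted p under 0.05 (479 of them among the 693 without it), 0 members passed and the median of the members was 0.12. Apart from the smaller number of tumors in a fit that leaves one out, the cause was not tested. Depth limits Trem2 and Msr1, and 3 tumors a group leave intervals wide enough to hold a doubling of Adgre1 or Cd163. The intervals are also wide enough to hold a halving of Cd163, Apoe or Msr1.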
